A study of Mus musculus with 12 samples.

Results

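The endothelial genes described here were 10 markers of the cells that line liver blood vessels: Pecam1, Cdh5 and Kdr for endothelium in general, Stab2, Clec4g and Lyve1 for sinusoids, Vwf, Cd34 and Plvap for continuous vessels, and Esm1 for tip cells. They were taken by symbol from the 26301 genes of the count table, and all 10 were found. On mm9, the build the reads were mapped to, Pecam1 at chr11:106515531-106611942 (- strand), Cdh5 at chr8:106625525-106668402 (+ strand), Kdr at chr5:76328852-76374483 (- strand) are the general markers. The sinusoidal markers lie with Stab2 at chr10:86303943-86470770 (- strand), Clec4g at chr8:3707064-3720651 (- strand) and Lyve1 at chr7:117994121-118006467 (- strand), and the others with Vwf at chr6:125496792-125636697 (+ strand), Cd34 at chr1:196765015-196787486 (+ strand), Plvap at chr8:74021653-74035668 (- strand) and Esm1 at chr13:113999867-114008306 (+ strand). Esm1 was chosen because its level was higher in DKO tumors, so its values are given as a description with no test, and 9 members were tested. Gene expression was measured by RNA sequencing in 12 libraries, 4 in each of 3 groups. DKO tumors were spontaneous liver tumors of adult mice with the genotype Alb-Cre-E2f7 E2f8 knockout, and TKO tumors came from adult mice that lacked Rb1 as well. The albumin promoter that drives Alb-Cre is active in hepatocytes, so the deletion was aimed at hepatocytes and not at endothelium. Control livers came from age-matched wild-type adult mice, and the labels name no treatment for any group. Livers and tumors were taken from ageing mice at the end of life, and the methods state that the mice were bred into FVB. The comparisons ask how vessel genes differed between each kind of tumor and normal liver, and between tumors with and without Rb1.

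Liver sinusoids are lined by a discontinuous, fenestrated endothelium that takes up waste from blood through scavenger receptors, whereas arteries, veins and most capillaries have a continuous lining. When liver tumors grow, vessels within them are known to lose sinusoidal features and to gain markers of continuous capillaries, a change called capillarization. Tip cells lead new sprouts under the control of vascular endothelial growth factor (VEGF) and Notch signals. In a piece of bulk tissue, fewer endothelial cells and less RNA of a gene per endothelial cell cannot be told apart.

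Promoters show what lies at the starts of the members that varied together across libraries, Esm1 with Cd34 and Stab2 with Clec4g. RefSeq promoter windows of the build GRCm38.p6 were at hand for 5 of the 10 members (Kdr, Stab2, Clec4g, Cd34 and Esm1). Each runs from 250 bases before the start to 50 after it. Capitals mark GGAA or TTCC, the core letters bound by ETS factors, a family that is active in endothelium.
Esm1 (chr13:113209409-113209708, + strand): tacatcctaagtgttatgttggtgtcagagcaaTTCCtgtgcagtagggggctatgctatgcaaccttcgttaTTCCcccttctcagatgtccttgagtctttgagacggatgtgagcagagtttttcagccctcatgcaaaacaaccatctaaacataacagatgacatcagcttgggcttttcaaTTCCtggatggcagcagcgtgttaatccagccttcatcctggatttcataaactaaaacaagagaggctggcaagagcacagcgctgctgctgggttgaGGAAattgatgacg
Cd34 (chr1:194938571-194938870, + strand): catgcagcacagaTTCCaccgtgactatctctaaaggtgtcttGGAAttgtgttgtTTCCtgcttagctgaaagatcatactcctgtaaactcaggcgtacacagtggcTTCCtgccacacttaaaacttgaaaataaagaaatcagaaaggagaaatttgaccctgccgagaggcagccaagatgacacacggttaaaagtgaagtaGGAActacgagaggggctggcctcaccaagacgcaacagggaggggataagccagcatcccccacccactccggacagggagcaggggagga
Stab2 (chr10:87007893-87008192, - strand): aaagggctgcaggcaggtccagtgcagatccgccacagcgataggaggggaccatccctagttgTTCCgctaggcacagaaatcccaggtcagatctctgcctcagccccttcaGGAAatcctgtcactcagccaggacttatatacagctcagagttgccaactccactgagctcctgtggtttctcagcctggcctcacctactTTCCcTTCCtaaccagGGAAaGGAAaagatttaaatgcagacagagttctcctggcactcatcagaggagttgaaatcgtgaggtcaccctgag
Clec4g (chr8:3720602-3720901, - strand): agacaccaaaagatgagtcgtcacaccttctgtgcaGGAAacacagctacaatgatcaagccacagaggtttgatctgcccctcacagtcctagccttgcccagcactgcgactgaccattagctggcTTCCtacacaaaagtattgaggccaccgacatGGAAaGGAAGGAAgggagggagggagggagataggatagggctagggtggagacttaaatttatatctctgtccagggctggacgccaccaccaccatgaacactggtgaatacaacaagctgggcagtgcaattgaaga
The core occurred 4 times in the Esm1 window, 5 times in those of Cd34, Clec4g and Kdr, and 6 times in that of Stab2. Across 32851 promoters the median was 3 cores, and 96% held at least 1, so that a core is common to nearly all promoters. Longer letters were searched on both strands: AGGAAGT for ETS, AGATAAG for GATA and TGTTTAC for forkhead factors. None of these was present in the 5 windows, and of all promoters 9.35% held the ETS letters, 3.04% the GATA letters and 3.65% the forkhead letters. A match describes letters and no binding, and the absence of a match says nothing about a factor.

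The libraries held 9165812 to 16424973 counts. Levels are given as CPM, the counts of a gene as a share of the library total scaled by the trimmed mean of M-values (TMM), and are comparable between libraries for 1 gene. Rb1 was at 3.21 to 5.47 CPM in the TKO libraries and at 6.52 to 11.3 CPM in the others, whereas mean whole-gene levels of E2f7 and E2f8 were not clearly lower in either tumor group (0.812, 1.15 and 0.803 CPM, and 6.24, 20.5 and 26.1 CPM, in control, DKO and TKO libraries). Several libraries stood apart from others of their group. DKO 4 was the lowest of the 12 libraries for 13 of 16 other sinusoidal genes and the highest for 9 of 11 tip cell genes. TKO 3 was the highest for 8 of the 16 sinusoidal genes and had Esm1 and Cd34 at control levels. Of the 336 genes that passed in DKO tumors against controls (edgeR), 154 lay within the control range in TKO 3, against 47, 39 and 44 in TKO 1, TKO 2 and TKO 4. How much of the TKO 3 piece was tumor was not tested, and each TKO mean includes it unless stated. DKO 3 was the highest for 9 of 12 genes of stellate cells and fibroblasts. These counts were made after the values were seen, and the fold changes that those libraries moved most are given with and without them. Albumin took 4.82% to 22.7% of the counts of a library.

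The general endothelial markers were at similar or higher levels in tumors, and none passed the test. Pecam1, a junction protein of endothelium that platelets carry as well, was at 17.7, 12.2, 10.6 and 22.2 CPM in control livers 1 to 4, at 30.1, 21.8, 27.2 and 69.5 CPM in DKO tumors 1 to 4, and at 29.1, 24.4, 33.2 and 32.7 CPM in TKO tumors 1 to 4. All TKO tumors and 3 of 4 DKO tumors were above every control liver, and DKO 4 was far above the rest. The group means were 15.7 ± 5.30, 37.2 ± 21.8 and 29.8 ± 4.07 CPM (SD, n = 4), and the log2 fold change was 1.24 (SE 0.34, adjusted p = 0.0693, edgeR) in DKO tumors and 0.93 (SE 0.34, adjusted p = 0.219) in TKO tumors. Without DKO 4 the DKO value was 0.75. Cdh5 encodes VE-cadherin, the adhesion molecule of endothelial junctions. Its level was 28.6, 13.6, 17.7 and 33.4 CPM in controls, 28.9, 23.0, 33.6 and 61.4 CPM in DKO tumors, and 33.6, 25.6, 42.5 and 33.5 CPM in TKO tumors. The groups overlapped, with DKO 4 again the highest, and the log2 fold changes of 0.65 (SE 0.33, adjusted p = 0.25, edgeR) and 0.53 (SE 0.33, adjusted p = 0.453) did not pass. The DKO value of Cdh5 was 0.29 without DKO 4. Kdr, the main receptor for VEGF, was at 39.8, 24.0, 27.7 and 39.8 CPM in controls, 39.6, 38.2, 45.4 and 26.8 CPM in DKO tumors, and 39.7, 36.0, 56.2 and 37.9 CPM in TKO tumors. Kdr overlapped in all groups, and unlike Pecam1 and Cdh5 it was lowest among tumors in DKO 4. Its log2 fold change was 0.19 (SE 0.22, adjusted p = 0.63, edgeR) in DKO and 0.37 (SE 0.22, adjusted p = 0.426) in TKO tumors. A list of 5 platelet and megakaryocyte genes summed to 3.93 to 7.47 CPM in controls, 6.88 to 9.58 CPM in DKO and 4.03 to 15.3 CPM in TKO tumors. Of its 3 tested genes 0 passed, and 2 had DKO values above every control, as had 8.87% of all genes. The part of platelets in the Pecam1 values was not tested.

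**Figure D1:**
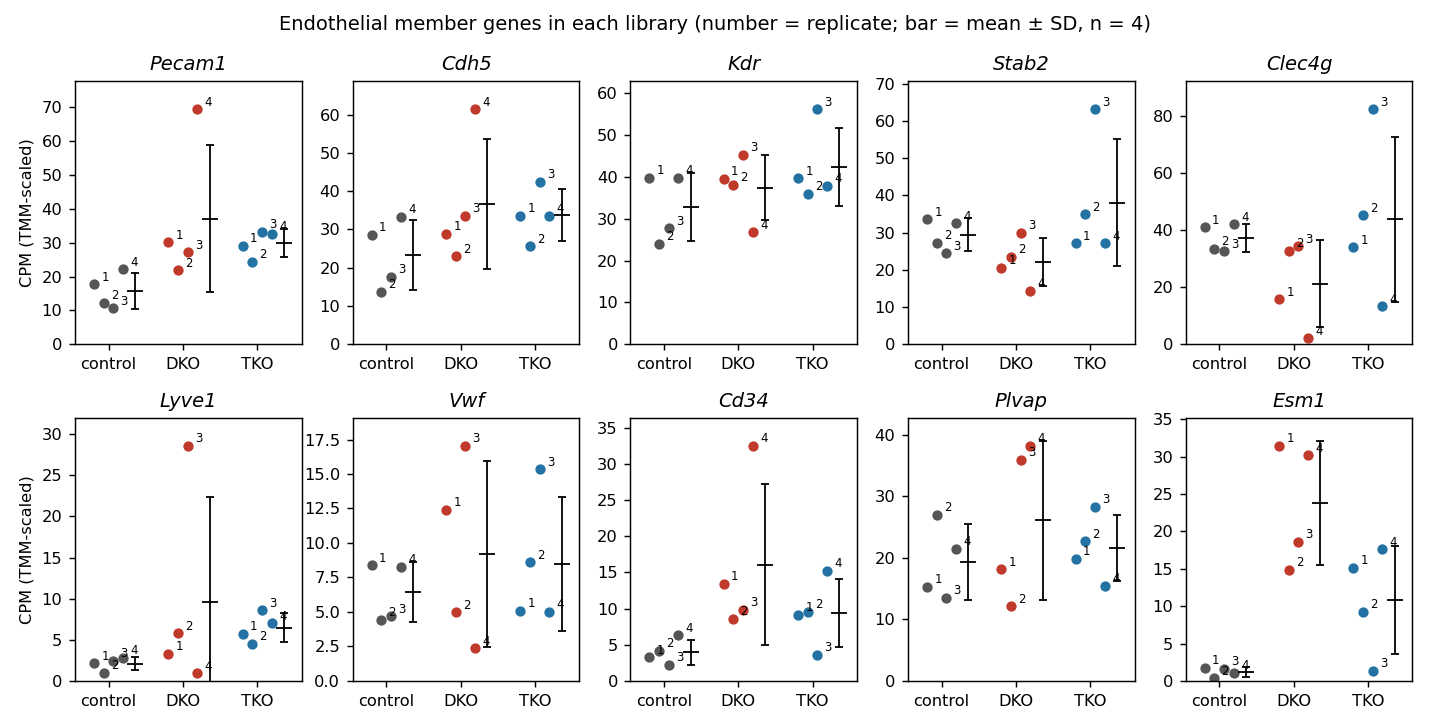
Level of each endothelial member in the 12 libraries, in CPM on a linear axis from 0, by group (grey, control livers; red, DKO tumors; blue, TKO tumors). Points are libraries with their replicate number, and bars are the mean ± SD of 4 libraries (the lower bar of Lyve1 in DKO tumors runs below 0 and is cut off); Esm1 is above every control liver in all 4 DKO tumors, while TKO 3 lies at 1.38 CPM.

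Sinusoidal markers went different ways from library to library. Stab2, a scavenger receptor for hyaluronan, was at 33.6, 27.3, 24.4 and 32.5 CPM in controls, 20.5, 23.4, 29.9 and 14.3 CPM in DKO tumors, and 27.1, 34.9, 63.1 and 27.2 CPM in TKO tumors. DKO 1, DKO 2 and DKO 4 were below every control liver, and DKO 3 was within the control range. TKO 2 and TKO 3 were above every control. The log2 fold change was -0.42 (SE 0.28, adjusted p = 0.398, edgeR) in DKO tumors and 0.37 (SE 0.28, adjusted p = 0.555) in TKO tumors. Without DKO 4 the DKO value was -0.26, and without TKO 3 the TKO value was 0.010. Clec4g, a C-type lectin of sinusoidal endothelium, was at 41.0, 33.6, 32.6 and 42.1 CPM in controls, 15.7, 32.7, 34.3 and 2.06 CPM in DKO tumors, and 34.1, 45.3, 82.5 and 13.3 CPM in TKO tumors. DKO 4 held 35 counts of Clec4g against 273 to 575 in controls, and DKO 1 and TKO 4 were also below every control. The spread between tumors was larger than the difference of the means, and the log2 fold changes of -0.82 (SE 0.65, adjusted p = 0.472, edgeR) in DKO and 0.23 (SE 0.64, adjusted p = 0.902) in TKO tumors did not pass. Without DKO 4 the DKO value of Clec4g was -0.44, and without TKO 3 its TKO value was -0.27. Lyve1, a hyaluronan receptor that lymphatic vessels share with sinusoids, was at 2.15, 0.984, 2.44 and 2.78 CPM in controls, 3.30, 5.77, 28.6 and 0.943 CPM in DKO tumors, and 5.73, 4.48, 8.59 and 7.01 CPM in TKO tumors. All TKO tumors and 3 of 4 DKO tumors were above every control, and DKO 4 was below them all. Its log2 fold change was 2.18 (SE 0.78, adjusted p = 0.119, edgeR) in DKO tumors and 0.64 without DKO 3, which held 483 counts against 16 to 73 in the other DKO tumors. In TKO tumors it was 1.60 (SE 0.78, adjusted p = 0.334). The 5 lymphatic genes summed to 46.0 to 104 CPM in controls, 64.1 to 93.1 CPM in DKO and 72.1 to 115 CPM in TKO tumors, and Prox1, which hepatocytes express as well, was the highest of them in every library but TKO 1. The part of lymphatic vessels in the Lyve1 values was not tested.

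Among the markers of continuous vessels, Cd34 differed most from control livers. Cd34, a sialomucin of capillary endothelium and blood progenitors, was at 3.26, 4.18, 2.24 and 6.30 CPM in controls, 13.4, 8.62, 9.82 and 32.5 CPM in DKO tumors, and 9.10, 9.59, 3.61 and 15.2 CPM in TKO tumors. Every DKO tumor was above every control liver, and so were 3 of 4 TKO tumors, TKO 3 being within the control range. The means were 3.99 ± 1.73, 16.1 ± 11.1 and 9.38 ± 4.75 CPM (SD, n = 4). The log2 fold change was 2.01 (SE 0.51, adjusted p = 0.0573, edgeR) in DKO tumors, just above the threshold of 0.05, and 1.23 (SE 0.51, adjusted p = 0.257) in TKO tumors. Without DKO 4 the DKO value was 1.41. With TKO 3 left out, Cd34 passed in DKO tumors (log2 fold change 2.01, adjusted p = 0.0337, edgeR), where 651 genes passed in all, against 336 with every library. Over all alternatives the adjusted p of Cd34 in DKO tumors against controls ran from 0.00322 to 0.163. Vwf, the clotting factor stored by endothelium and platelets, was at 8.38, 4.43, 4.68 and 8.27 CPM in controls, 12.4, 4.98, 17.0 and 2.36 CPM in DKO tumors, and 5.07, 8.60, 15.3 and 4.998 CPM in TKO tumors. DKO 4 was the lowest and DKO 3 the highest of all libraries, and the log2 fold changes were 0.51 (SE 0.55, adjusted p = 0.606, edgeR) and 0.39 (SE 0.55, adjusted p = 0.776). Without DKO 3 the DKO value of Vwf was 0.021, and without TKO 3 its TKO value was -0.06. Plvap, a protein of the diaphragms that close endothelial fenestrae, was at 15.3, 27.0, 13.6 and 21.5 CPM in controls, 18.2, 12.1, 36.0 and 38.2 CPM in DKO tumors, and 19.8, 22.7, 28.3 and 15.4 CPM in TKO tumors. DKO 3 and DKO 4 were above every control and DKO 2 below them all, and neither the DKO value of 0.44 (SE 0.35, adjusted p = 0.471, edgeR) nor the TKO value of 0.16 (SE 0.35, adjusted p = 0.868) passed. Without DKO 4 the DKO value of Plvap was 0.20, and without TKO 3 its TKO value was 0.0013.

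Esm1 encodes endocan, a proteoglycan secreted by sprouting endothelium in response to VEGF. Control livers held 24, 3, 24 and 15 counts of Esm1, DKO tumors 410, 188, 315 and 512, and TKO tumors 251, 130, 18 and 236. In CPM these were 1.78, 0.369, 1.63 and 1.10 in controls, 31.4, 14.9, 18.6 and 30.2 in DKO tumors, and 15.1, 9.24, 1.38 and 17.6 in TKO tumors. All 4 DKO tumors and 3 TKO tumors were above every control liver, and TKO 3 was within the control range. The means were 1.22 ± 0.637 CPM in controls, 23.8 ± 8.28 CPM in DKO and 10.8 ± 7.22 CPM in TKO tumors (SD, n = 4), a ratio to controls of 19.5 and 8.90. Without TKO 3 the TKO mean was 14.0 ± 4.299 CPM (SD, n = 3). On the log2 scale the differences from controls were 4.22 (SE 0.66) and 3.09 (SE 0.64). Over the leave-one-out fits and other settings they lay between 3.98 and 4.43 in DKO and between 2.75 and 3.45 in TKO tumors. These ranges come from the values Esm1 was picked for, and the TKO difference uses the same controls. They are a description and no support for the rise. Gzmk, which overlaps Esm1 on the opposite strand, reached at most 0.146 CPM in any library.

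None of the 9 tested members passed in DKO tumors against controls (edgeR, adjusted p under 0.05), where 2.42% of the 13882 tested genes did. At an unadjusted p under 0.05 Cd34, Pecam1 and Lyve1 passed, 3 of 9, against 12.9% of all genes in the higher direction. DESeq2 called the same 3 genes higher (adjusted p = 0.00322, 0.0134 and 0.0325), against 5.44% of all genes in that direction. Cd34 alone had DKO values that did not overlap the controls, all higher, which was true of 8.87% of all genes. The median log2 fold change of the 9 members was 0.51 beside 0.02 over all genes tested. In TKO tumors 0 of 9 members passed in edgeR, beside 0.0864% of all genes, and 0 in DESeq2, beside 3.32%. Cd34 and Pecam1 had an unadjusted p under 0.05 there (9.94% of all genes in the higher direction), and Pecam1 and Lyve1 were above the controls with no overlap (4.38% of all genes). The median of the members was 0.39 beside 0.02. With DKO 4 and TKO 3 both left out, Cd34 passed in TKO tumors (log2 fold change 1.49, adjusted p = 0.0465, edgeR), and 0 members passed in DKO tumors. In that fit 367 genes passed in TKO and 449 in DKO tumors, against 12 and 336 with every library. Both comparisons used the same 4 control livers.

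**Figure D2:**
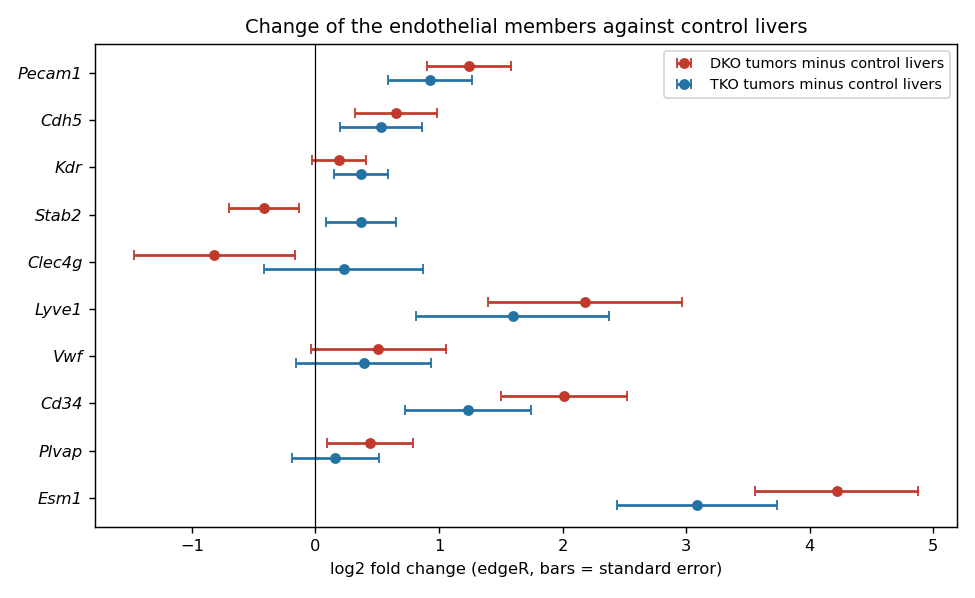
Log2 fold change of each member against control livers (x axis, edgeR) in DKO tumors (red) and TKO tumors (blue), with bars for the standard error. Cd34 lies at 2.01 in DKO and 1.23 in TKO tumors, Stab2 and Clec4g lie below 0 in DKO and above 0 in TKO tumors (Clec4g not without TKO 3), and Esm1 is shown as a description.

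Between TKO and DKO tumors 0 of 9 members passed in edgeR and 0 in DESeq2, beside 0% and 0.398% of all genes. Stab2 had an unadjusted p under 0.05 (5.16% of all genes in the higher direction), with a log2 fold change of 0.79 (SE 0.29, adjusted p = 0.488, edgeR), and it fell to 0.27 with DKO 4 and TKO 3 left out. Clec4g had a log2 fold change of 1.05 (SE 0.65, adjusted p = 0.644, edgeR), and it was 0.16 with both left out. Cd34 was at -0.78 (SE 0.49, adjusted p = 0.644), and at 0.09 with both left out. The values for Pecam1, Cdh5, Kdr, Vwf and Plvap were between -0.32 and 0.18. Those for Pecam1 and Cdh5 changed sign without DKO 4 and the value for Lyve1 of -0.59 (SE 0.73, adjusted p = 0.831, edgeR) changed sign without DKO 3. Esm1 in TKO tumors was at 0.456 of the DKO mean, a log2 difference of -1.13 (SE 0.55), and the values of both groups overlapped. No member separated TKO from DKO tumors, beside 4.87% of all genes whose values did not overlap.

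To compare levels between genes, CPM was divided by the length in kb of the longest coding transcript. For Clec4g this was 1442 bases, against 2462 bases over all its exons, so its level and rank depend on the length used. With the longer length it would overlap Plvap in controls and would not lead in DKO tumors. In control livers Clec4g was the highest at 25.9 ± 3.42 CPM per kb (SD, n = 4), above Plvap (9.60 ± 3.06) with no overlap. Plvap, Cdh5 (5.85 ± 2.31), Kdr (5.54 ± 1.38), Pecam1 (4.56 ± 1.54) and Stab2 (3.58 ± 0.529) followed, and each overlapped the next in this order. Stab2 was above Cd34 (1.52 ± 0.659) with no overlap, and Cd34, Lyve1 (0.801 ± 0.300), Vwf (0.729 ± 0.247) and Esm1 (0.581 ± 0.304) again overlapped from each to the next. In DKO tumors the order was Clec4g (14.7 ± 10.6), Plvap, Esm1 (11.3 ± 3.95), Pecam1 (10.8 ± 6.34), Cdh5, Kdr, Cd34 (6.14 ± 4.24), Lyve1, Stab2 (2.68 ± 0.790) and Vwf. Esm1, last in control livers, was the third in DKO tumors and the sixth in TKO tumors (5.17 ± 3.44), where Clec4g again led at 30.4 ± 20.1 CPM per kb. All neighbours overlapped in both tumor groups. Each of the 10 members was detected in all 12 libraries, with at least 3 counts.

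The make-up of the endothelial signal was described by the sum of Stab2, Clec4g and Lyve1 over the sum of Pecam1, Cdh5 and Kdr. The log2 of this sinusoidal ratio was -0.17, 0.31, 0.08 and -0.30 in controls, -1.32, -0.42, -0.19 and -3.19 in DKO tumors, and -0.61, -0.02, 0.22 and -1.13 in TKO tumors. DKO 1, DKO 2, DKO 4, TKO 1 and TKO 4 were below every control liver, and DKO 3, TKO 2 and TKO 3 were within the control range. In DKO 3 Lyve1 made up 28.6 of the 92.8 CPM of the sinusoidal sum, while controls held 0.984 to 2.78 CPM of Lyve1. The place of DKO 3 therefore leans on Lyve1. Its Stab2 and Clec4g were at 29.9 and 34.3 CPM. The sum of Pecam1, Cdh5 and Kdr was 106 CPM in DKO 3, against 49.8 to 95.3 CPM in controls. Without Lyve1 the ratio of DKO 3 would therefore lie below every control liver. The means were -0.02 ± 0.27, -1.28 ± 1.36 and -0.39 ± 0.61 (SD, n = 4). Leaving out DKO 4 and TKO 3 gave -0.64 ± 0.59 in DKO and -0.59 ± 0.56 in TKO tumors (SD, n = 3). The same ratio for Vwf, Cd34 and Plvap was -1.25 ± 0.53 in controls, -1.18 ± 0.39 in DKO and -1.42 ± 0.24 in TKO tumors (SD, n = 4), and differed by less than the spread between libraries. A list of 11 Kupffer cell genes, macrophages that live in the sinusoids, was measured beside this ratio. It summed to 272 to 667 CPM in controls, 116 to 553 CPM in DKO and 193 to 733 CPM in TKO tumors, with its lowest value in DKO 4 and its highest in TKO 3. Among controls the sum and the ratio did not go together, since control 2 had the highest ratio and the lowest sum. Of these 11 genes, 10 had a log2 fold change below 0 in DKO tumors (median -0.93) and 10 in TKO tumors (median -0.21), beside 48.4% and 47.5% of all genes, none passed in edgeR or DESeq2, and their part in the sinusoidal ratio was not tested.

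**Figure D3:**
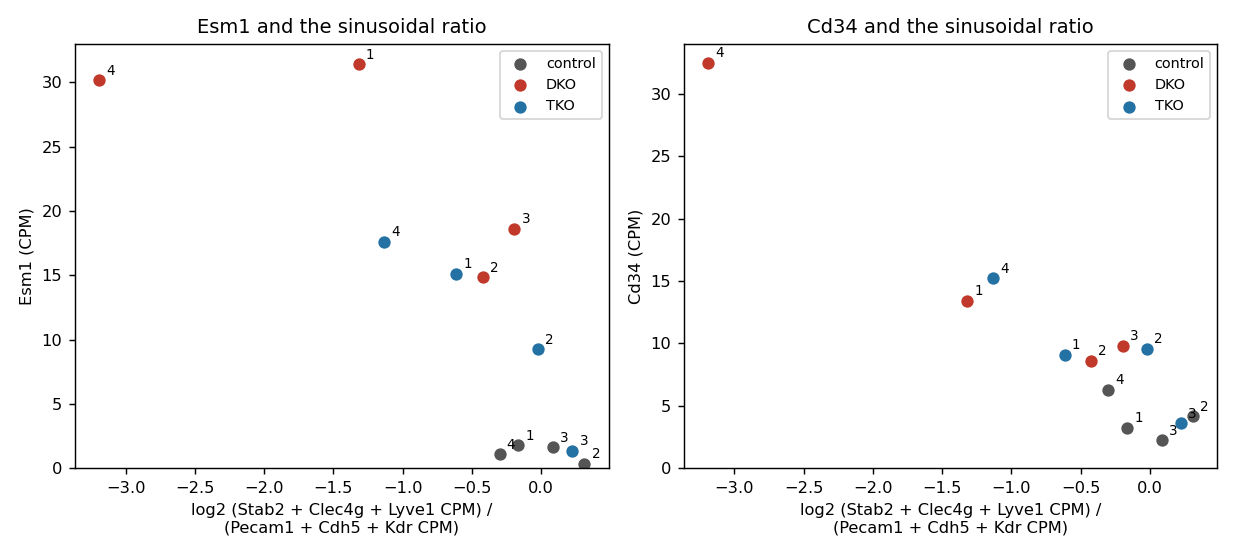
Esm1 (left) and Cd34 (right), in CPM, against the log2 sinusoidal ratio of each library (grey, control livers; red, DKO tumors; blue, TKO tumors; numbers are replicates). DKO 4 lies at a ratio of -3.19, TKO 3 lies among the control livers in both panels, and DKO 3 and TKO 2 have Esm1 at 18.6 and 9.24 CPM with a ratio near that of controls. In DKO 3 Lyve1 gives 28.6 of the 92.8 CPM of the sinusoidal sum, and without Lyve1 its ratio would lie below every control liver.

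Pecam1 and Cdh5 followed each other across the 12 libraries (Pearson r = 0.92, Spearman rho = 0.87, and r = 0.85 without the 2 libraries farthest from the median). Stab2 and Clec4g did so as well (r = 0.84, rho = 0.90, and 0.64 without the 2 farthest), as did Cd34 and Esm1 (r = 0.83, rho = 0.82, and 0.87). Clec4g and Cd34 ran in opposite directions (r = -0.77, rho = -0.50), and this was -0.47 without the 2 farthest libraries. Among the 8 tumors alone r was 0.94, 0.86, 0.84 and -0.95 for these 4 pairs. All points share the 12 libraries and their scaling, 45 pairs were computed and these were picked by their values, so they describe these libraries and carry no p. Any r of Esm1 over the 12 libraries includes the difference between DKO tumors and controls for which Esm1 was picked. Over all 13882 tested genes, those whose log2 CPM was most like Esm1 were Anxa5 (r = 0.98), Etl4 (0.97), Ccdc120 (0.96), Cd2ap (0.95) and Ifi27l2b (0.95). For Pecam1 they were Mmrn2 (0.97), Robo4 (0.96), Col4a2 (0.94), Nid2 (0.94) and Col4a1 (0.94), each of which is an endothelial or vessel wall gene of the lists below. For Stab2 they were St6galnac3 (0.95), Morn1 (0.93), Aqp1 (0.93), Tspan7 (0.92) and Npnt (0.91).

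Beyond the members, 73 other endothelial genes were listed, and 67 had enough counts to be tested. In DKO tumors 7 of the 67 were higher and 0 lower (edgeR, adjusted p under 0.05), beside 1.41% and 1.01% of all genes, and DESeq2 called 20 higher and 0 lower, beside 5.44% of all genes higher. The 7 genes were Angpt2, a ligand that loosens vessels (log2 fold change 2.74, SE 0.52), Emcn, a sialomucin of capillaries and veins (2.07, SE 0.47), Ecscr, a surface protein of endothelium (1.63, SE 0.39), Dll4, the Notch ligand of tip cells (1.56, SE 0.32), Efnb2, the ephrin of arteries (1.53, SE 0.35), Sox18, a transcription factor of endothelium (1.36, SE 0.29) and Robo4, an endothelial guidance receptor (1.20, SE 0.25). Their adjusted p ran from 0.0376 to 0.0498 in edgeR. All 7, which this same test picked, had DKO values above every control. So had 17 of the 67 and 8.87% of all genes, while 5 of the 67 and 7.3% of all genes were below every control. The count of 7 depended on single libraries: it was 0 without control 2, control 3, control 4, DKO 1, DKO 2 or DKO 4, and 2 without control 1 or TKO 1. Over all genes the calls also fell, from 336 to 5 without control 4 or DKO 1 and to 7 without DKO 2 or DKO 4. They were 166 without control 1 and 96 without TKO 1. The calls over all genes without control 2 or control 3 are not given here, so those 2 counts of 0 have no share beside them. With DKO 4 and TKO 3 both left out only Angpt2 of the 67 passed (log2 fold change 2.00, adjusted p = 0.033, edgeR), where 449 genes passed in all. In TKO tumors 0 of 67 passed in edgeR, 17 had an unadjusted p under 0.05 (16.3% of all genes), and DESeq2 called 5 higher, beside 1.92% of all genes higher. Without both libraries Vegfb, Fabp4, Gpihbp1, Dll4 and Col4a1 passed in TKO tumors, with log2 fold changes of 1.00, 2.25, 1.02, 1.38 and 1.51. Over all genes the TKO calls were then 367, against 12 with every library. Between TKO and DKO tumors 0 passed in edgeR or DESeq2, and 6 had an unadjusted p under 0.05 (9% of all genes). The median over the 67 genes was 0.36 in DKO and 0.53 in TKO tumors.

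The lists differed in their medians. All 11 tested tip cell genes had a log2 fold change above 0 in DKO tumors, with a median of 1.42, beside 51.6% of all genes above 0, and 2 passed in edgeR (Angpt2 and Dll4). Apln, a peptide ligand of tip cells, was at 5.98, 4.67, 3.79 and 24.6 CPM in DKO tumors and at 0.615 to 3.56 CPM in controls. These did not overlap, as for 8.87% of all genes that were higher (log2 fold change 2.31, SE 0.82, adjusted p = 0.116, edgeR). Angpt2 was at 2.22, 2.85, 5.26 and 12.6 CPM in DKO tumors and at 0.732 to 1.08 CPM in controls. In TKO tumors 10 of 11 tip cell genes were above 0 (52.5% of all genes), with a median of 0.86, and 0 passed. The median in DKO tumors was 0.91 with DKO 4 and TKO 3 left out, and in TKO tumors it was then 1.00.

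The sinusoidal list held 16 genes, of which 12 had a log2 fold change below 0 in DKO tumors (median -0.47) and 7 in TKO tumors (median 0.01), beside 48.4% and 47.5% of all genes. None passed in either comparison in edgeR or DESeq2, and 3 (the transcription factor Maf, Wnt2 and Wnt9b, all lower) had an unadjusted p under 0.05 in DKO tumors, beside 11.1% of all genes in the lower direction. Stab1, a scavenger receptor like Stab2, was at 23.0, 28.3, 40.04 and 17.7 CPM in DKO tumors and 15.8 to 31.2 CPM in controls (log2 fold change 0.36, SE 0.30, adjusted p = 0.491, edgeR). Fcgr2b, an inhibitory receptor for antibodies, was at 19.4, 35.2, 33.4 and 11.3 CPM against 28.3 to 40.3 CPM in controls (log2 fold change -0.46, SE 0.33, adjusted p = 0.426, edgeR). Mrc1, the mannose receptor that macrophages share, was at 24.6, 39.0, 48.3 and 7.78 CPM in DKO tumors and 23.5 to 56.2 CPM in controls. Only DKO 4 was outside the control range (log2 fold change -0.37, SE 0.48, adjusted p = 0.678, edgeR). Wnt2 and Wnt9b are signals that sinusoids send to hepatocytes. Wnt2 was at 0.690, 1.58, 1.18 and 0.177 CPM, below its control range of 1.97 to 4.03 CPM, and Wnt9b at 0.354 to 1.19 CPM, below its control range of 1.35 to 2.22 CPM, as were 7.3% of all genes. Neither passed (log2 fold change -1.60, SE 0.62, adjusted p = 0.142 for Wnt2, and -1.02, SE 0.44, adjusted p = 0.182 for Wnt9b, edgeR), and Maf, Wnt2 and Wnt9b were named after their values were seen. With DKO 4 and TKO 3 left out, the median of the sinusoidal list was -0.21 in DKO and -0.23 in TKO tumors.

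**Figure D4:**
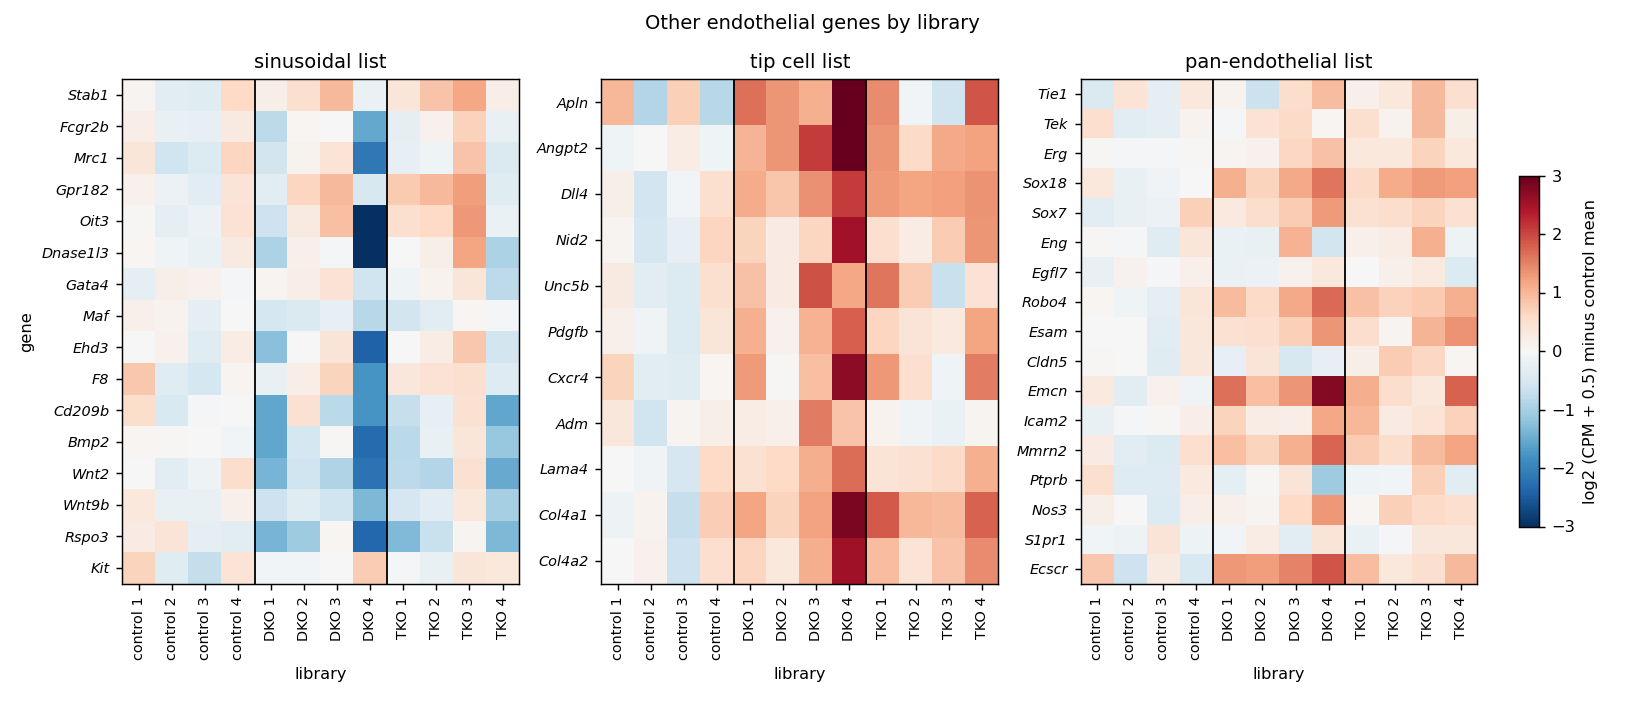
Colour shows log2 (CPM + 0.5) of each other sinusoidal, tip cell and pan-endothelial gene in each library, minus its control mean, from blue (lower) to red (higher), with the scale ending at -3 and 3. In DKO 4 most sinusoidal genes are blue and tip cell genes are red, while in TKO 3 most sinusoidal genes are red.

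Of the 17 other pan-endothelial genes 15 were above 0 in DKO and 17 in TKO tumors, beside 51.6% and 52.5% of all genes. Their medians were 0.74 and 0.59, and 4 passed in DKO tumors (Sox18, Robo4, Emcn and Ecscr), beside 1.41% of all genes higher. Their first listed genes, the angiopoietin receptors Tie1 and Tek and the transcription factor Erg, had log2 fold changes of 0.31, 0.24 and 0.52 in DKO and 0.49, 0.46 and 0.46 in TKO tumors, and none of them passed. Of 12 tested continuous vessel genes 9 were above 0 in DKO and 10 in TKO tumors (51.6% and 52.5% of all genes). The medians were 0.88 and 0.90, and Efnb2 passed in DKO tumors. With DKO 4 and TKO 3 left out, the pan-endothelial medians were 0.36 in DKO and 0.52 in TKO tumors, and 0 passed. The continuous vessel medians were then 0.74 and 0.98, and 0 passed in DKO and 2 in TKO tumors. In that fit 449 genes passed in all in DKO and 367 in TKO tumors. Gja5 and Gja4, connexins of arteries, had log2 fold changes of 0.72 and 0.27 in DKO tumors and of 1.22 and -0.06 in TKO tumors. In the VEGF and angiopoietin list the median of 11 tested genes was 0.30 in DKO and 0.49 in TKO tumors, and Angpt2, which the tip cell list also holds, passed in DKO tumors. Vegfa, the main ligand of Kdr, was at 54.4 to 94.3 CPM in controls, 54.1 to 67.2 CPM in DKO and 48.4 to 63.6 CPM in TKO tumors (log2 fold change -0.15, SE 0.17, adjusted p = 0.625, and -0.29, SE 0.17, adjusted p = 0.443, edgeR). Vegfb was at 4.67 to 5.49 CPM in controls, 6.01 to 17.6 CPM in DKO and 8.67 to 12.8 CPM in TKO tumors, and neither tumor group overlapped the controls (log2 fold change 0.95, SE 0.30, adjusted p = 0.0869, and 0.96, SE 0.30, adjusted p = 0.163, edgeR). Of all genes 8.87% in DKO and 4.38% in TKO tumors were above every control. Vegfc, a ligand for lymphatic growth, had log2 fold changes of 0.03 and -0.12. In the lymphatic list 0 of 4 tested genes passed, and its first listed genes Prox1, which hepatocytes express as well, Pdpn and Mmrn1 had log2 fold changes of -0.11, 0.98 and 0.59 in DKO tumors.

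Lists for other cells were measured beside the endothelial genes, and 0 of their 49 tested genes passed in either tumor group in edgeR or DESeq2. Of all genes 2.42% passed in DKO and 0.0864% in TKO tumors in edgeR, and 9.95% and 3.32% in DESeq2. The 12 genes of stellate cells and fibroblasts summed to 308 to 511 CPM in controls, 203 to 688 CPM in DKO and 259 to 487 CPM in TKO tumors, and the highest value was that of DKO 3, which also had the highest Lyve1 and Vwf. Lymphocyte genes summed to 11.4 to 33.8, 8.96 to 29.6 and 12.2 to 20.1 CPM, and cholangiocyte genes to 28.6 to 50.01, 24.8 to 109 and 31.4 to 55.2 CPM, in the same order of groups. Red blood cell genes summed to 1030 to 1350, 739.8 to 2788 and 1040 to 2561 CPM, with the highest value in DKO 4. Hepatocyte genes summed to 97497 to 149760 CPM in controls, 132497 to 344195 CPM in DKO and 53996 to 264490 CPM in TKO tumors. For the first 3 tested genes of each list the log2 fold changes in DKO tumors were -1.03, -0.95 and -1.62 for the Kupffer cell genes Clec4f, Vsig4 and Marco, -0.33, 0.03 and 0.63 for the stellate cell genes Lrat, Reln and Des, and 0.53, 0.13 and 0.97 for the platelet genes Pf4, Itga2b and Ppbp. They were -0.81, -0.37 and -0.43 for the lymphocyte genes Cd3e, Cd79a and Cd79b, 1.11, 1.00 and 1.06 for the cholangiocyte genes Krt19, Epcam and Sox9, and 0.92, 0.31 and -0.86 for the hepatocyte genes Alb, Apoa1 and Ttr. The haemoglobin genes Hba-a1, Hba-a2 and Hbb-bs were at -0.0036, -0.07 and 0.51. The part of these cells in the endothelial values was not tested.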

How the data were processed

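RNA from 12 mouse livers or tumors was made into poly(A)-selected SOLiD libraries and sequenced as 40-base reads. BWA was used by the authors for mapping to mm9, and featureCounts for the gene table. What they deposited are raw counts by Entrez gene, and no strand setting is given in the sources used here. Members and lists were chosen with earlier results of these data known. Genes were named through RefSeq. Library totals ran from 9165812 to 16424973 counts, which limits precision for low genes (3 counts of Esm1 in control 2).

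Counts were scaled by TMM, genes were kept by filterByExpr (13882), and all 12 libraries were fitted with group as the single factor by the quasi-likelihood test of edgeR 4.0.16 in R 4.3.3, with Benjamini-Hochberg adjustment over all genes and a threshold of 0.05. The study used DESeq2, which was run as an alternative (version 1.42.0). Other alternatives were DESeq2 size factors, total counts, 2 filters, the 8 libraries of a comparison alone, a replicate block, a score of sex-linked genes and each library left out. Leaving out DKO 4 and TKO 3 together, and the search for ETS cores, were chosen after the values were seen. The fit was tested on simulated data. Named genes were all members, the first 3 tested genes of each list, every listed gene that passed, and the 5 genes most like Esm1, Stab2 and Pecam1. Maf, Wnt2, Wnt9b and the genes that passed only with DKO 4 and TKO 3 left out were named after their values were seen. Transcript lengths came from GENCODE vM1. No label says that replicate livers shared a litter or batch, and p-values measure the spread between these mice, taken as independent. The sample descriptions carry letter codes, some shared within or across groups, whose meaning is not stated and which were not used as a factor. Controls 2 and 3 share a letter and had the most similar counts of any pair. No pair of libraries was alike within sampling noise.

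On mm9, Cd34 overlaps Gm16897, Plvap overlaps Gtpbp3 (5.42 to 11.9 CPM) and Clec4g overlaps Gm9814, so their reads may not be told apart fully.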

Additional observations from a re-analysis of the deposited data

How the results depend on the processing

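Members passing in DKO tumors were 0 in the reported fit, and 1 with no filter, 1 with the 8 libraries alone, 2 with the replicate block (Cd34 and Pecam1), 3 in DESeq2 and 0 to 1 with a library left out. Over all genes the calls were 336 in the reported fit and 294 with no filter. They were 759 with the 8 libraries alone, 509 with the replicate block and 1491 in DESeq2. In TKO tumors 1 member passed with DKO 4 and TKO 3 both left out, where 367 genes passed in all, against 12 in the reported fit. The 7 other endothelial genes that passed in DKO tumors became 0 with total counts only, 0 with the score of sex-linked genes, 14 with the replicate block, 20 in DESeq2, 1 with DKO 4 and TKO 3 both left out, and 0 to 9 with a library left out. Over all genes the calls were 59 with total counts only, 6 with the score of sex-linked genes and 449 with both libraries left out. With 1 library left out the calls over all genes in DKO tumors ran from 5 to 651, with no value given for control 2 and control 3. For TKO tumors 0 became 5 in DESeq2 and 5 with both libraries left out, where 498 and 367 genes passed in all. The cause of these moves was not tested. All 12 libraries had Xist at 0.460 CPM or less and Ddx3y at 47.9 CPM or more, so the sex-linked score did not separate sexes.

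Replicate numbers did not pair the samples: deviations of same-numbered libraries correlated at -0.17 to 0.37, and not every pair was above 0.1. Under the block Clec4g in TKO tumors was -0.23 and Vwf between tumors 0.022, both reversed. With a library left out, log2 fold changes that reversed ran from -0.27 to 0.52 for Clec4g and from -0.058 to 0.57 for Vwf in TKO tumors, and, between TKO and DKO tumors, from -0.50 to 0.18 for Pecam1, from -0.29 to 0.24 for Cdh5, from -0.97 to 0.96 for Lyve1 and from -0.56 to 0.37 for Vwf. With DKO 4 and TKO 3 both left out, reversed values between tumors were 0.12 for Pecam1, 0.11 for Cdh5, -0.12 for Kdr and 0.088 for Cd34, and in TKO tumors -0.28 for Clec4g, -0.065 for Vwf and -0.0040 for Plvap. Of all other values, 774 kept their direction and side of the threshold. A minimum of 10 counts in every library dropped Esm1 and Lyve1, for which that setting gave no value.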
